A study of Ovis aries with 18 samples.

Results

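The genes described here are regulators and executors of mitosis: the cyclins CCNA2, CCNB1 and CCNB2, the cyclin-dependent kinase CDK1, the kinases PLK1, AURKA and AURKB, the checkpoint kinase BUB1, the anaphase activator CDC20 and the DNA topoisomerase TOP2A. The members were given as a list of 10 gene symbols. Rows of 8 of them were found among the 20092 genes of the count table, and all 8 were among the 16488 genes kept for testing, those that reached 15 counts in more than 3 pools. CDK1 and AURKA were not analysed here.

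RNA was sequenced from 12 pools of 5 blastocysts, grouped by sire and dam, to ask whether the diet of the sire alters gene expression in the embryos. The sires were 6 Polypay rams that were prepubertal when the trial began. Ram410, Ram423 and Ram444 received a general basal diet, and 6 control pools came from them (2 per ram). Ram424, Ram498 and Ram511 received the same basal diet top-dressed with 1.5 g (0.22%) of methionine in a rumen-protected form, which escapes microbial breakdown before the intestine, and of the 6 methionine pools 4 came from Ram424. Pools are named by ram and number. The RNA went through whole transcriptome amplification ahead of the libraries. Levels are CPM, the counts of a gene scaled to a library of 1000000 counts, after TMM normalization, which brings libraries to a shared level over most genes. They are not scaled by transcript length, so that levels are compared between pools and not between genes. Each ram was penned with its own ewes, and the labels used here name the ram and not the dam. Pools from the same ram have a sire in common and can share a dam. The p-values over pools measure the spread between these pools.

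Mitosis is driven by CDK1 bound to A-type and then B-type cyclins. Entry is reinforced by Polo-like kinase and Aurora kinases, which act at centrosomes, centromeres and the spindle. The spindle assembly checkpoint holds CDC20 inactive until every chromosome is attached, after which CDC20 and the anaphase-promoting complex (APC/C) mark cyclins and securin for destruction. Many transcripts of these genes accumulate in G2 and M phase, and the oocyte also stores some of them, so that a blastocyst pool holds a mixture of cells at different points of the cycle. In pools of whole embryos, a smaller share of dividing cells and less RNA per cell cannot be told apart.

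The depth was 1173289 to 1554651 counts in control pools and 1017847 to 2398589 in methionine pools. The control pool Embryo444_2 and the methionine pool Embryo511_1 stood apart from the other 10. Their median Spearman correlation with the other pools was 0.582 and 0.600, against 0.820 to 0.857. KRT8, a keratin of the trophectoderm, was at 116 CPM in Embryo444_2 and 42.6 CPM in Embryo511_1, against 3893 to 11862 CPM in the other 10 pools, and the summed level of the 7 trophectoderm markers with a row was 224 and 194 CPM against 5252 to 14350. Both pools are labelled as blastocysts, a stage whose outer layer is the trophectoderm. KRT8 made up most of the summed level in the other 10 pools. GATA2 of the same list was also low, at 4.25 CPM in Embryo444_2 and 3.97 CPM in Embryo511_1, against 33.4 to 86.1 CPM. ELF5 of this list was not low. It was at 29.0 CPM in Embryo444_2, within the control range of 17.1 to 128 CPM, and at 66.4 CPM in Embryo511_1, the highest methionine pool for this gene. The fold change of each member and the counts of each list are given below with all pools, and again without both. Leaving both out removes Ram511, so that the methionine pools left are those of Ram424 and Embryo498_1. Pools Embryo424_1 and Embryo424_2 were closer to each other than any other pair (Spearman 0.955), with a chi-square of their counts of 3.29 per degree of freedom against 8.29 or more for the other pairs. This chi-square takes reads as independent molecules, which amplified reads are not, so it cannot tell a repeated library from a separate pool. They were kept as separate pools because the labels list them so, and values with both summed to 1 pool are given for CCNA2 and PLK1, whose highest levels they held.

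Across the diet comparison, transcript levels of the mitotic genes overlapped between the diets at every member. The edgeR quasi-likelihood test with Benjamini-Hochberg adjustment over all tested genes called 0 of the 8 members at FDR under 0.05, as it called 0 of 16488 genes (0%). At an unadjusted p under 0.05, it found 1 member higher with methionine, PLK1, beside 3.55% of all genes, and 0 members lower, beside 4.37% of all genes. The pools of the diets were fully separated at 0 members, beside 0.352% of all genes. With edgeR's likelihood-ratio test 5 genes were called and with DESeq2 16, none of them a member, and each of these tools found 2 members (CCNA2 and PLK1) higher at an unadjusted p under 0.05, beside 4.04% of all genes for the likelihood-ratio test and 4.18% for DESeq2. Without pools Embryo444_2 and Embryo511_1, 2 of 8 members, CCNA2 and PLK1, were higher at an unadjusted quasi-likelihood p under 0.05, beside 5.74% of all genes, and 0 were lower, beside 6.18%. The log2 fold change (methionine minus control) was above 0 for 7 of 8 members with a median of 0.27, while 50.5% of all tested genes were above 0 with a median of 0.0051.

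**Figure D1:**
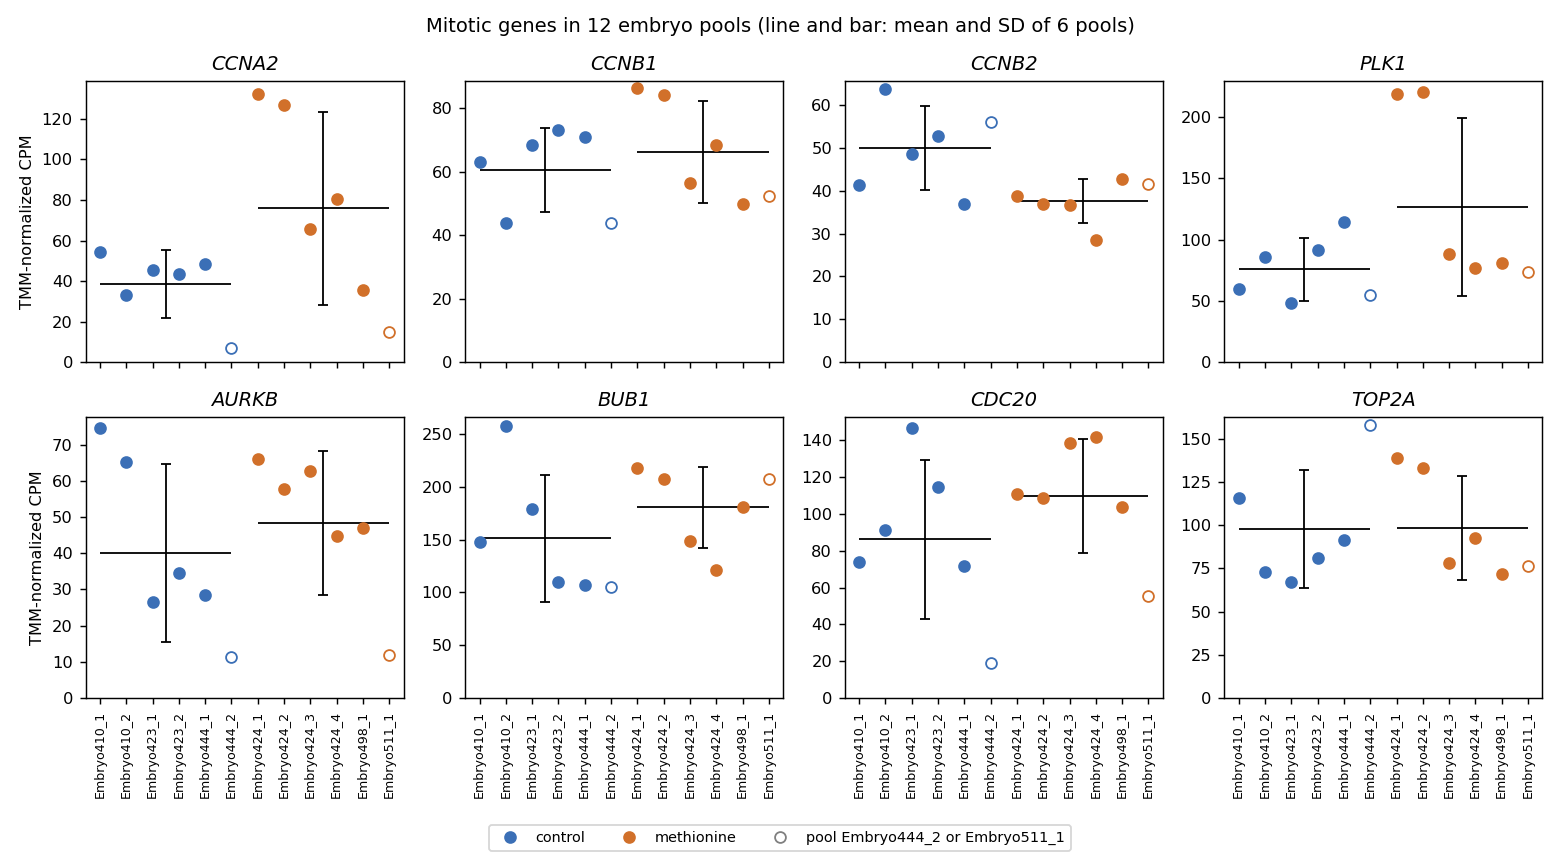
TMM-normalized CPM of the 8 mitotic genes in each embryo pool, with the pool on the horizontal axis; blue points are control pools, orange points methionine pools, open points the pools Embryo444_2 and Embryo511_1, and horizontal lines with bars the mean and SD of 6 pools. CCNA2 and PLK1 reached 132 and 221 CPM in pools of Ram424, CCNB2 lay between 28.5 and 42.8 CPM in the methionine pools, and CCNA2, AURKB and CDC20 were low in both open points.

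CCNA2 encodes cyclin A2, which is needed in S phase and for entry into mitosis. Its level was 54.2 and 33.3 CPM in the pools of control Ram410, 45.7 and 43.6 CPM in those of Ram423, and 48.3 and 7.08 CPM in those of Ram444. In the methionine pools it was 132, 127, 65.6 and 80.6 CPM for Ram424, 35.5 CPM for Ram498 and 14.9 CPM for Ram511. All 4 pools of Ram424 were above every control pool, whereas the pools of the other methionine rams lay within the control range. For the pool of Ram511 this holds only through the lowest pool of Ram444, as the other control pools were at 33.3 to 54.2 CPM. The mean was 38.7 ± 16.9 CPM in control pools and 76.0 ± 47.5 CPM in methionine pools (SD, n = 6 each). The log2 fold change was 0.98 (SE 0.47), with an unadjusted p of 0.0548 and an adjusted p of 0.639 by the quasi-likelihood test. An exact permutation test (two-sided, 924 ways to assign the pools) gave p = 0.225, and the same exact test on the 6 ram means (20 ways, which cannot go below 0.1) gave p = 1.

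Without the 4 pools of Ram424 the log2 fold change of CCNA2 was −0.59 (SE 0.63). With Embryo424_1 and Embryo424_2 summed to 1 pool it was 0.77 (SE 0.49, unadjusted p 0.136 by the quasi-likelihood test). Without pools Embryo444_2 and Embryo511_1, and so without Ram511, it was 0.96 (SE 0.30). Its adjusted p was then 0.280 and its unadjusted p 0.00563 by the quasi-likelihood test. With Embryo424_1 and Embryo424_2 also summed the log2 fold change was 0.80 (SE 0.31), with an adjusted p of 0.580 and an unadjusted p of 0.0202 by the same test. CCNA2 spanned 18.7-fold from the lowest to the highest pool, the widest range of the 8 members, and its coefficient of variation (CV) over the 12 pools was 68.3%, above that of 86.4% of tested genes. The low end rests on few reads: pool Embryo444_2 had 10 counts (95% Poisson interval 4.80 to 18.4, counting error only).

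CCNA2 overlaps EXOSC9, a subunit of the RNA exosome, in the RefSeq annotation of another build, and whether counting used strand is not given in the sources used here, so reads of these neighbours may not be separable. EXOSC9 was at 19.8 to 32.4 CPM in control pools and at 41.6 to 58.5 CPM in methionine pools, with no overlap (log2 fold change 0.97, SE 0.23, adjusted p 0.584 by the quasi-likelihood test and 0.0255 by DESeq2). In pools Embryo444_2 and Embryo511_1, where CCNA2 was lowest, EXOSC9 was at 24.1 and 41.6 CPM, within the range of the other pools of each diet. The part of EXOSC9 reads in the CCNA2 counts was not tested.

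CCNB1 encodes cyclin B1, the main mitotic partner of CDK1, and CCNB2 encodes cyclin B2, another B-type cyclin, found at the Golgi. CCNB1 ranged from 43.9 CPM (pools Embryo410_2 and Embryo444_2) over a median of 65.9 to 73.1 CPM (Embryo423_2) in control pools, and from 50.0 CPM (Embryo498_1) over 62.4 to 86.5 CPM (Embryo424_1) in methionine pools. The groups overlapped throughout most of this range, and only Embryo424_1 and Embryo424_2 (84.4 CPM) lay above the highest control pool. The mean was 60.6 ± 13.4 against 66.4 ± 16.1 CPM, a log2 fold change of 0.13 (SE 0.24, 95% interval −0.33 to 0.59). Its adjusted p was 0.900 by the quasi-likelihood test, and the exact permutation p was 0.532 over pools. Without pools Embryo444_2 and Embryo511_1 the log2 fold change was 0.10.

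CCNB2 was the only member with a log2 fold change below 0. It was at 41.4, 63.7, 48.6, 52.6, 36.9 and 55.9 CPM in control pools Embryo410_1, Embryo410_2, Embryo423_1, Embryo423_2, Embryo444_1 and Embryo444_2. In the methionine pools it was at 38.7, 36.8, 36.7 and 28.5 CPM for Ram424, 42.8 CPM for Ram498 and 41.6 CPM for Ram511. All 6 methionine pools were below the control median of 50.6 CPM, but they overlapped with pools Embryo410_1 and Embryo444_1. The mean was 49.9 ± 9.78 CPM against 37.5 ± 5.06 CPM (SD, n = 6 each) with a log2 fold change of −0.41 (SE 0.22). By the quasi-likelihood test the unadjusted p was 0.0815 and the adjusted p 0.663. The exact permutation test over pools gave an unadjusted p of 0.0281, and the share of all genes this low by that test is not given here. Averaged by ram, the 3 methionine rams (35.2, 42.8 and 41.6 CPM) were below the 3 control rams (52.6, 50.6 and 46.4 CPM), for which the exact permutation p of 0.1 is the smallest that 3 against 3 allows. The log2 fold change was −0.42 without pools Embryo444_2 and Embryo511_1 and −0.24 (SE 0.36) without Ram424.

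The B-type cyclins had the lowest spread over the pools among the 8 members. The CV was 22.7% for CCNB1 and 22.5% for CCNB2, lower than in all but 6.36% and 6.18% of tested genes, against a median of 42.2% over all tested genes. The count ratio of CCNA2 to CCNB1, a measure chosen after the values were seen and so given with no test, was 1.16 to 1.53 in the 4 pools of Ram424. It was 0.711 in Embryo498_1, within the 0.596 to 0.857 of the control pools other than Embryo444_2. It was 0.161 in Embryo444_2 and 0.283 in Embryo511_1.

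**Figure D2:**
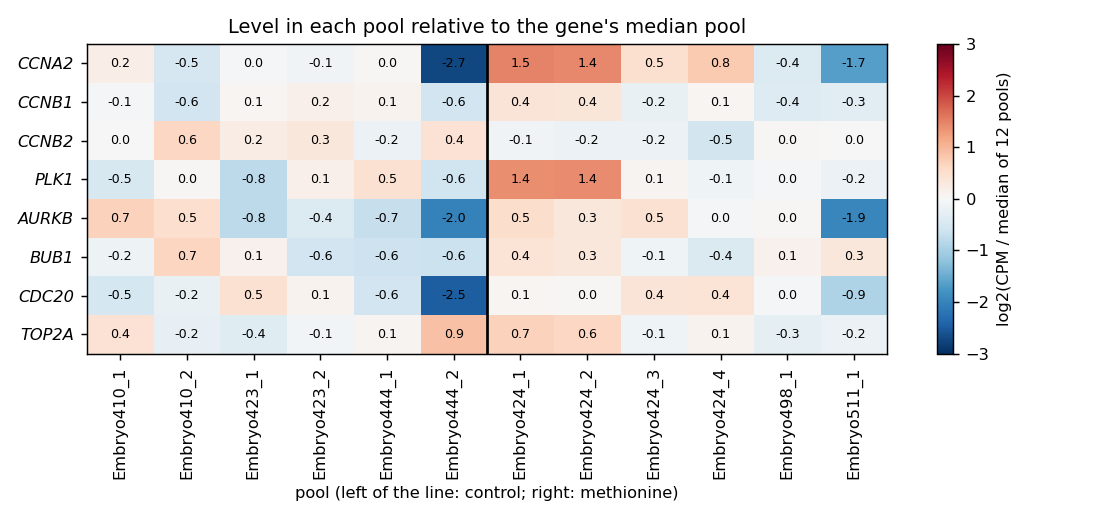
Heat map of the log2 ratio of the CPM in a pool to the gene's median over 12 pools, with genes as rows and pools as columns, control left and methionine right of the vertical line. Pools Embryo424_1 and Embryo424_2 were above the median for 7 of 8 members, and pool Embryo444_2 was the lowest pool for 5 members.

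PLK1 encodes Polo-like kinase 1, which promotes mitotic entry, centrosome maturation and cytokinesis. Its level was 59.4 and 85.7 CPM for Ram410, 48.6 and 91.8 CPM for Ram423, and 114 and 55.2 CPM for Ram444. With methionine it was 219, 221, 88.2 and 76.7 CPM for Ram424, 80.7 CPM for Ram498 and 73.4 CPM for Ram511. The highest values were those of the closely alike pools Embryo424_1 and Embryo424_2, and the other 4 methionine pools lay inside the control range. All 6 methionine pools were above the control median of 72.6 CPM. The mean was 75.8 ± 25.5 CPM in control and 126 ± 72.5 CPM in methionine pools (SD, n = 6 each), and the log2 fold change was 0.74 (SE 0.35). Its unadjusted p was 0.0480 and its adjusted p 0.624 by the quasi-likelihood test, and the exact permutation p was 0.139 over pools and 0.2 over rams.

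The size of the PLK1 difference changed with the pools of Ram424. With Embryo424_1 and Embryo424_2 summed to 1 pool the log2 fold change was 0.51 (SE 0.34, unadjusted p 0.149 by the quasi-likelihood test). Without Ram424 it was 0.029 (SE 0.39). Without pools Embryo444_2 and Embryo511_1 it was 0.76 (SE 0.33, adjusted p 0.388 by the quasi-likelihood test). With Embryo424_1 and Embryo424_2 also summed it was 0.55 (SE 0.33, unadjusted p 0.120 by the same test). Over 29 alternative settings, most of which left out a pool or ram, the unadjusted p of PLK1 ran from 0.0217 to 0.942. PLK1 overlaps ERN2 in the same annotation. ERN2 was at 10.9 to 45.4 CPM with a log2 fold change of −0.030.

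AURKB encodes Aurora kinase B, the enzyme of the chromosomal passenger complex, which corrects wrong attachments of chromosomes to the spindle. It was at 74.5 and 65.2 CPM for Ram410, 26.4 and 34.6 CPM for Ram423, and 28.4 and 11.3 CPM for Ram444, and at 66.0, 57.7, 62.8 and 44.7 CPM for Ram424, 47.0 CPM for Ram498 and 11.9 CPM for Ram511. The rams differed within each diet: the ram means were 69.8, 30.5 and 19.9 CPM for Ram410, Ram423 and Ram444 (control), and 57.8, 47.0 and 11.9 CPM for Ram424, Ram498 and Ram511 (methionine). The mean was 40.1 ± 24.5 CPM against 48.4 ± 19.8 CPM, a log2 fold change of 0.28 (SE 0.42, 95% interval −0.55 to 1.11) with an adjusted p of 0.879 by the quasi-likelihood test. Leaving out Ram410 gave a log2 fold change of 0.94, leaving out Ram424 gave −0.41, and leaving out Embryo444_2 and Embryo511_1 gave 0.27. AURKB overlaps BORCS6 (14.3 to 93.7 CPM) in the same annotation.

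BUB1 encodes a kinase of the spindle assembly checkpoint that also recruits protectors of cohesion to the centromere. It ranged from 105 CPM (Embryo444_2) over a median of 129 to 258 CPM (Embryo410_2) in control pools, and from 121 CPM (Embryo424_4) over 194 to 218 CPM (Embryo424_1) in methionine pools. The highest pool of all was a control pool, and 5 of 6 methionine pools were above the control median. The mean was 151 ± 59.9 CPM against 181 ± 38.2 CPM, a log2 fold change of 0.26 (SE 0.29) with an adjusted p of 0.833 by the quasi-likelihood test and an exact permutation p of 0.258 over pools. In pool Embryo511_1 BUB1 was at 207 CPM, above the methionine median. Without this pool and Embryo444_2 the log2 fold change was 0.12 (SE 0.26).

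CDC20 encodes the activator through which the APC/C starts anaphase, and it is the target that the checkpoint holds back. It ranged from 19.1 CPM (Embryo444_2) over a median of 82.6 to 146 CPM (Embryo423_1) in control pools, and from 55.5 CPM (Embryo511_1) over 109.8 to 142 CPM (Embryo424_4) in methionine pools. The lowest value in each diet was that of the pool that stood apart. The mean was 86.2 ± 43.2 CPM against 109.8 ± 31.0 CPM, a log2 fold change of 0.35 (SE 0.36) with an adjusted p of 0.821 by the quasi-likelihood test. Without pools Embryo444_2 and Embryo511_1 the log2 fold change was 0.27 (SE 0.23).

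TOP2A encodes topoisomerase II alpha, which untangles sister DNA molecules so that chromosomes can condense and separate. It ranged from 67.1 CPM (Embryo423_1) over a median of 86.2 to 158 CPM (Embryo444_2) in control pools, and from 71.7 CPM (Embryo498_1) over 85.4 to 139 CPM (Embryo424_1) in methionine pools. The ranges were nearly superimposed. The mean was 97.7 ± 34.1 CPM against 98.4 ± 29.9 CPM, a log2 fold change of 0.013 (SE 0.27, 95% interval −0.52 to 0.54) with an adjusted p of 0.994 by the quasi-likelihood test. The highest pool was Embryo444_2, the pool in which CCNA2, CDC20 and AURKB were lowest. Without it and Embryo511_1 the log2 fold change of TOP2A was 0.25 (SE 0.23).

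**Figure D3:**
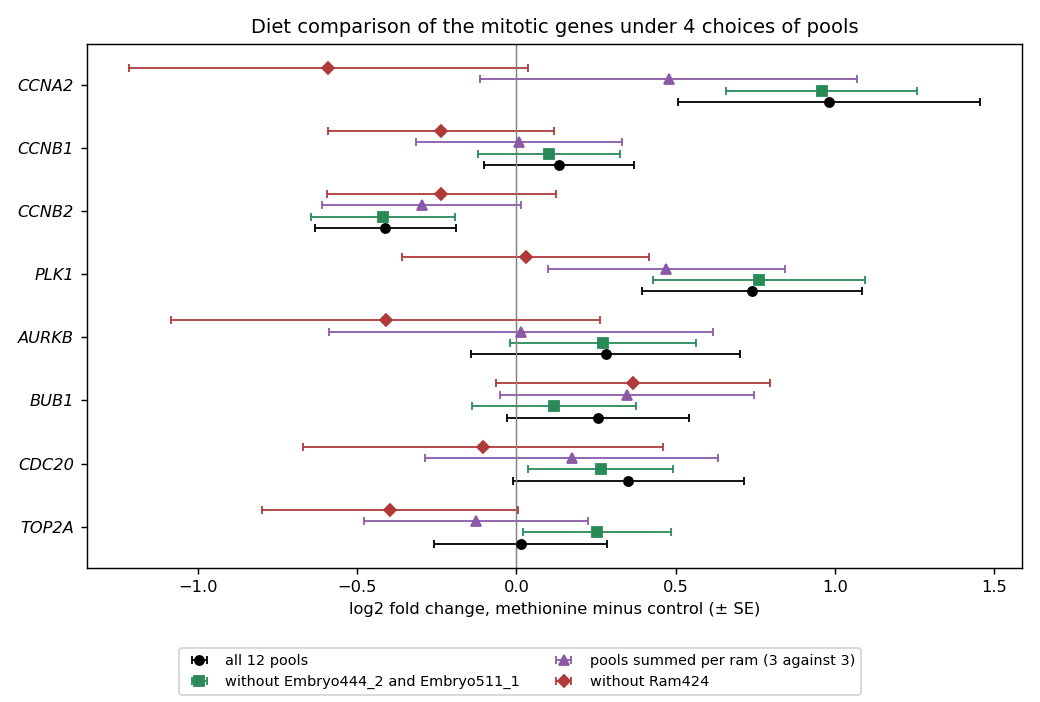
Log2 fold change (methionine minus control, horizontal axis) of each mitotic gene with its SE as bars, from all 12 pools (black), without pools Embryo444_2 and Embryo511_1 (green), with pools summed per ram (purple) and without Ram424 (red). CCNA2 was at 0.98, 0.96, 0.48 and −0.59 in these fits, and CCNB2 was below 0 in each.

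The unit of the diet was the ram, and 4 of 6 methionine pools had the same sire. With the counts of a ram's pools summed and 3 rams set against 3, the log2 fold change was 0.48 (SE 0.59) for CCNA2, 0.47 (SE 0.37) for PLK1, −0.30 (SE 0.31) for CCNB2 and 0.014 (SE 0.60) for AURKB. None of the 8 members was called (each adjusted p 0.9999 by the quasi-likelihood test). Without Ram424, which left Ram498 and Ram511 with 1 pool each, 2 of 8 members were above 0, BUB1 at 0.37 (SE 0.43) and PLK1 at 0.029, and the median over the members was −0.24. The CCNA2 values above the control range, and the PLK1 values above it, were all in pools of Ram424. The diet, the sire and the ewes bred to it cannot be told apart in those pools.

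Pools Embryo444_2 and Embryo511_1 differed from the rest unevenly over the mitotic genes. As a share of the median of the other 5 pools of the same diet, CCNA2 was at 15.5% in Embryo444_2 and 18.4% in Embryo511_1, AURKB at 32.7% and 20.6%, and CDC20 at 20.9% and 50.1%. CCNB1 was at 64.0% and 76.9%, and PLK1 at 64.4% and 83.2%. CCNB2 was at 115% and 113%, above the other pools' median where CCNA2 and CCNB1 were below it. BUB1 was at 71.5% and 115%, and TOP2A at 195% and 82.6%. The median over all tested genes was 101% in both pools, which follows largely from TMM normalization and is no baseline for single genes. The spread of this share over all tested genes is not given here. Whether the unevenness is particular to the mitotic genes was not tested. Each value is that of 1 pool, and the difference between these pools and the rest has no test here.

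Marker levels moved with these pools. The summed level of inner cell mass, epiblast and hypoblast markers (8 of 10 with a row) was 375 CPM in Embryo444_2 and 573 CPM in Embryo511_1, against 851 to 2085 CPM in the other 10 pools. The genes of this list did not move together. POU5F1 was low in the same pools (14.2 and 39.7 CPM against 132 to 521 CPM). PRDM14 was above the other 10 pools in both (43.9 and 83.3 CPM against 14.5 to 37.9 CPM). PDGFRA was at 166 and 115 CPM against 96.3 to 155 CPM. Oocyte and cumulus markers (10 of 14 with a row) summed to 212 and 902 CPM against 160 to 232 CPM, and markers of blood and uterine cells (6 of 10 with a row) to 346 and 554 CPM against 175 to 290 CPM. The part of these cells in the levels of the mitotic genes was not tested. By diet, the trophectoderm sum was 224 to 11762 CPM in control and 194 to 14350 CPM in methionine pools, and the inner cell mass sum was 375 to 1759 and 573 to 2085 CPM. The oocyte and cumulus sum was 160 to 232 and 178 to 902 CPM, and the blood and uterine sum was 175 to 346 and 194 to 554 CPM. Of the 30 marker genes tested, 2 were higher with methionine at an unadjusted p under 0.05, beside 3.55% of all genes, and 0 passed FDR under 0.05. They were the zona pellucida genes ZP3 (log2 fold change 2.35) and ZP2 (0.98). ZP3 was at 410 CPM in pool Embryo511_1 and at 12.3 to 26.8 CPM in the other methionine pools, against 9.21 to 27.6 CPM in control pools. Without Embryo444_2 and Embryo511_1 neither had an unadjusted p under 0.05, with log2 fold changes of 0.46 for ZP3 and 0.30 for ZP2. The trophectoderm genes GATA2 (log2 fold change 0.71) and ELF5 (−1.06) then did. With all pools GATA2 was at 0.72 and ELF5 at −0.61, PRDM14 and PDGFRA of the inner cell mass list at 0.56 and −0.37, MOS of the oocyte list at −0.72, and COL3A1 and COL1A1 of the blood and uterine list at 0.26 and −0.29. In Embryo511_1 ZAR1, another oocyte gene, and the hypoblast gene SOX17 were at 0 counts.

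**Figure D4:**
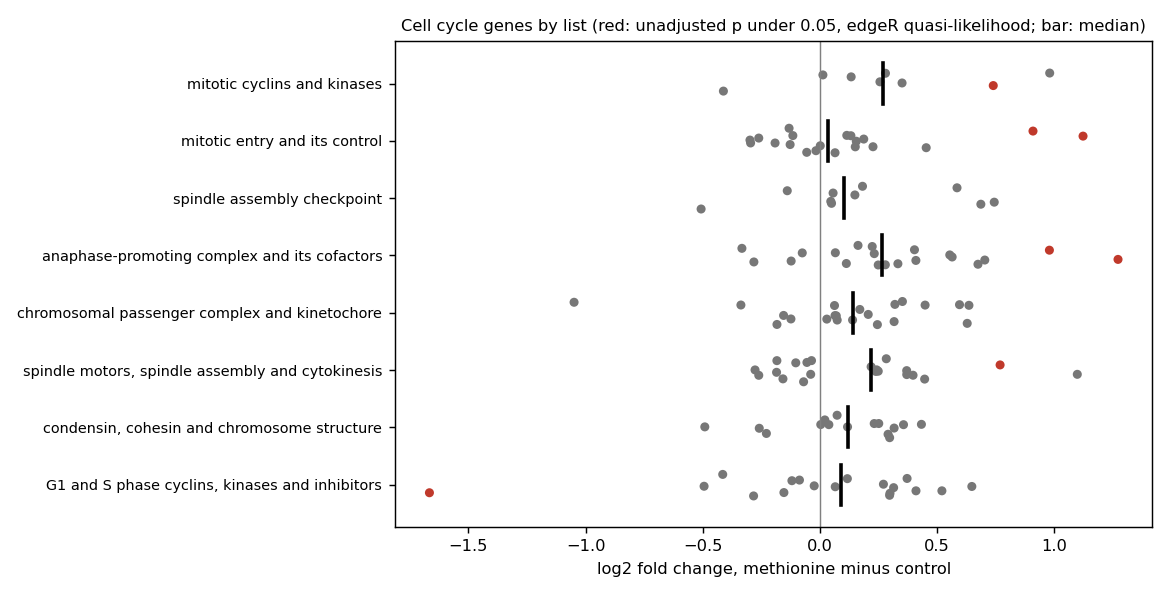
Log2 fold change (methionine minus control, horizontal axis) of the 8 mitotic genes and of the tested genes of 7 other cell cycle lists, each point a gene, red where the unadjusted p was under 0.05, with a bar at the median of each list. Medians lay between 0.033 and 0.27, and of the 125 genes of the other lists 5 red points were above 0 and 1 below.

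Genes of the wider cell cycle were counted in the same way. Of 125 tested genes in 7 lists of the pathway, 0 passed FDR under 0.05 by the quasi-likelihood test. By the unadjusted p at the same limit, 5 (4%) were higher and 1 was lower with methionine, beside 3.55% and 4.37% of all genes. A log2 fold change above 0 was found for 84 of the 125, beside 50.5% of all tested genes. The same share applies to the counts above 0 in each list below. Such counts without Ram424 are not given here. Without pools Embryo444_2 and Embryo511_1, 11 of 125 (8.8%) were higher and 3 were lower, beside 5.74% and 6.18% of all genes, and 0 passed FDR under 0.05. The methionine pools left in that fit were those of Ram424 and Embryo498_1. None of the 125 was among the genes called by the likelihood-ratio test or DESeq2.

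Among 20 genes of mitotic entry and its control, 11 were above 0 (median log2 fold change 0.033) and 2 were higher at an unadjusted p under 0.05. CCNB3, a B-type cyclin of germ cells and early embryos, had 25.5 to 62.5 CPM in control and 30.7 to 149.7 CPM in methionine pools (log2 fold change 0.91, SE 0.34, adjusted p 0.585 by the quasi-likelihood test). Its highest pool was Embryo511_1, next to the lowest pool for CCNA2, AURKB and CDC20. The other was MYBL2, a transcription factor that drives mitotic genes, at 1.12. CCNF, the cyclin of an SCF ubiquitin ligase, had the smallest p among the lower genes at −0.26 (SE 0.26). Without Embryo444_2 and Embryo511_1, CCNB3 was at 0.61 (SE 0.29) and no longer under the limit, while MYBL2 (1.10) and WEE1 (0.52), the kinase that restrains CDK1, were.

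Of the 10 genes of the spindle assembly checkpoint, 8 were above 0 (median 0.10) and, with all pools, none passed an unadjusted p under 0.05. MAD2L1, whose product binds and restrains CDC20, had 6.37 to 27.1 CPM in control and 19.8 to 56.9 CPM in methionine pools (0.74, SE 0.38), and MAD2L1BP, whose product removes it, was at −0.51 (SE 0.30). The 20 genes of the APC/C and its cofactors had a median of 0.26, with 16 above 0. ANAPC13, a small subunit, was at 12.8 to 42.3 CPM in control and 11.9 to 122.9 CPM in methionine pools (1.27, SE 0.48, adjusted p 0.585 by the quasi-likelihood test). FBXO5, an inhibitor of the APC/C, was the other gene at an unadjusted p under 0.05 (0.98), and ANAPC4 was at −0.28 (SE 0.24). Without Embryo444_2 and Embryo511_1, ANAPC13 (1.38) and FBXO5 (0.81) remained under this limit, and 1 checkpoint gene, ZWILCH (0.91), came under it.

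Of 21 tested genes of the chromosomal passenger complex and kinetochore, 16 were above 0 (median 0.14) and, with all pools, none passed an unadjusted p under 0.05. CENPA, the centromeric histone H3 variant, was at 0.60 (SE 0.32), and SPC24, a kinetochore protein that binds the spindle through its complex, at −1.05 (SE 0.55). Without Embryo444_2 and Embryo511_1, SPC24 (−1.14, SE 0.44) and CENPK (0.84, SE 0.34) had an unadjusted p under 0.05. Among 21 genes of spindle motors, spindle assembly and cytokinesis, 11 were above 0 (median 0.22). CEP55, which acts in abscission, was higher at an unadjusted p under 0.05 (14.2 to 43.9 CPM in control and 36.4 to 67.9 CPM in methionine pools, 0.77, SE 0.30). Its lowest pool was Embryo444_2, and KIF14 was at −0.26 (SE 0.26). Without Embryo444_2 and Embryo511_1, CEP55 was at 0.55 (SE 0.27) and no longer under this limit. KIF14 was then lower at −0.60 (SE 0.18), and ANLN (0.49), KIF23 (0.44) and KIFC1 (1.17) were higher.

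The 15 tested genes of condensin, cohesin and chromosome structure had a median of 0.12, with 12 above 0. NCAPG was at 0.36 (SE 0.24) and MKI67, the proliferation marker Ki-67, at −0.49 (SE 0.40). MKI67 ranged from 94.9 to 399 CPM in control pools and was highest in Embryo444_2, where TOP2A was also highest. Without Embryo444_2 and Embryo511_1, NCAPG (0.50) and SMC3 (0.63) had an unadjusted p under 0.05. Of 18 tested G1 and S phase genes, 10 were above 0 (median 0.091). CDKN2C, an inhibitor of CDK4 and CDK6, was the gene lower at an unadjusted p under 0.05, with 1.42 to 90.3 CPM in control and 3.61 to 11.3 CPM in methionine pools (−1.67, SE 0.73), and MNAT1, a subunit of the CDK-activating kinase, was at 0.65 (SE 0.34). CDKN2C was at −1.94 without Embryo444_2 and Embryo511_1 and was again the list's only gene under this limit.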

How the data were processed

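Per the sources, the authors trimmed the reads with Trimmomatic, aligned them with STAR to Oar_rambouillet_v1.0 and deposited raw counts per gene and pool. The strand setting is not given in the sources used here. Pools were grouped by the diet and ram in their labels. The filter kept 16488 of 20092 genes (a count of 15 or more, in over 3 pools). After TMM normalization, edgeR 4.0.16 (R 4.3.3) fitted diet alone by its quasi-likelihood method with Benjamini-Hochberg adjustment. The common biological coefficient of variation was 0.450. For single members, pool labels were permuted exactly (two-sided) on mean log2(CPM + 1). The fit was tested on simulated data with known changes. Those changes were larger than the ones of the members, and the simulated pools were independent of the ram. The simulation therefore does not show how the fit handles small changes or pools that share a sire. Alternatives used DESeq2 1.42.0, limma 3.58.1 and left-out pools and rams. Since amplified copies of a molecule cannot be told apart, the Poisson intervals of counts cover counting error only. The SE of a quasi-likelihood fit was computed as the size of the log2 fold change over the square root of its F statistic, and it includes the spread between pools. The intervals of log2 fold changes were taken from this SE with normal quantiles, so they are narrower than the test itself would give. Neighbouring genes were those whose coordinates overlap a member in a RefSeq table of ARS-UI_Ramb_v3.0, a build other than that of the counts. All 10 members were named, and from each other list the genes of smallest p among those higher and among those lower. Other genes under an unadjusted p of 0.05, with all pools or without the pools that stood apart, and POU5F1, ZAR1 and SOX17 were named after their values were seen. The members and lists were chosen with earlier results of these data known. Sperm methylation at these genes and reference sequences were not analysed here.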

Additional observations from a re-analysis of the deposited data

How the results depend on the processing

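Of 232 log2 fold changes of the 8 members over 29 settings, 18 changed sign and 0 moved past the threshold of FDR under 0.05. Leaving out Ram498 or Ram511 is the same fit as leaving out its only pool, so these fits are counted under both names. The count of members called was 0 in every setting. The genes called of all tested were 5 with the likelihood-ratio test, 16 with DESeq2 and 1 (MROH5) without pools Embryo444_2 and Embryo511_1, and no other setting called any. Leaving out these pools, and summing Embryo424_1 and Embryo424_2, were chosen after seeing the data. With pools or rams left out in turn, the log2 fold change ranged from −0.59 to 1.19 for CCNA2, −0.24 to 0.27 for CCNB1, −0.41 to 0.94 for AURKB, −0.10 to 0.79 for CDC20 and −0.40 to 0.23 for TOP2A, the lowest always without Ram424. TOP2A, near 0 with all pools, was also at −0.15 with library sizes only, −0.13 with pools summed per ram, −0.058 with the ram as a random effect in limma and −0.10 with pools Embryo424_1 and Embryo424_2 summed. Library sizes only moved the median of all genes from 0.0051 to −0.094. CCNB2 stayed between −0.52 and −0.24, PLK1 between 0.029 and 0.89 and BUB1 between 0.053 and 0.52. Of the 125 genes of the other cell cycle lists, 6 (4.8%) had an unadjusted p under 0.05 with all pools, beside 7.92% of all genes. The share moved with that of all genes in several settings: 15 (12%, all genes 11.8%) without Embryo511_1, the only pool of Ram511, 14 (11.2%, all genes 11.9%) without Embryo444_2 and Embryo511_1, 12 (9.6%, all genes 8.58%) without Ram424, 3 (2.4%, all genes 3.47%) with pools summed per ram and 2 (1.6%, all genes 2.15%) with the ram as a random effect. It was 10 (8%) without Embryo498_1 or Embryo423_1 (all genes 8.77% and 8.25%), 2 (1.6%) without Ram410 (all genes 6.96%), 3 (2.4%) without Embryo410_1 or Embryo424_1 or with Embryo424_1 and Embryo424_2 summed (all genes 7.56%, 5.72% and 5.86%), and 4 (3.2%) without Embryo444_1 or Embryo424_2 (all genes 7.06% and 5.91%). Members at an unadjusted p under 0.05, 1 with all pools, were 0 to 2. The cause was not tested. Depth limits CCNA2 and AURKB most, with lowest counts of 10 (CCNA2 in Embryo444_2) and 12 (AURKB in Embryo511_1). The planned results on sperm methylation and on promoter and protein sequences were not run.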
